A study of Mus musculus with 28 samples.

Results

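In testis of mice carrying a PRDM9 without its KRAB domain, 378 of the 17120 autosomal peaks of meiotic DNA breaks had their middle within the last 5 Mb of a chromosome. The members were chosen by position alone, with mm10 chromosome lengths, on chromosomes 1 to 19. The other 16742 autosomal peaks, on the same chromosomes, serve for comparison. The deposited list holds 17731 peaks in all, of which 610 lie on X and 1 on Y.

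The series asks what the domains of PRDM9 do in meiosis and holds 28 mouse samples. Breaks were mapped in 1 testis library labelled Prdm9(K/K), on the C57BL/6 strain, with a genotype given as lacking the KRAB domain and no age stated. The method was SSDS, which sequences the single-stranded DNA recovered with an antibody to DMC1, the recombinase that coats resected break ends. Testis mRNA came from 2 Prdm9-/- libraries, 2 Hop2-/- libraries and 1 adult wild-type library, all C57BL/6. No mRNA library was of the K/K genotype, so mRNA levels describe the genes and not the K/K testis. With 1 break library there is no replicate, so no p-value is given. Intervals are 95% intervals for counting error or for the spread over peaks, and repeated PCR copies of a fragment are not independent molecules. Those of a ratio or difference of medians are built from 95% intervals of each median and are not themselves 95% intervals.

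PRDM9 is a zinc finger protein of meiotic cells that binds DNA motifs and trimethylates histone H3 at lysine 4 and lysine 36, and breaks are then made at the marked sites. Its KRAB domain is a protein interaction domain. In mice that lack PRDM9 function, breaks form largely at promoters and other places that already carry trimethylated lysine 4. Mouse chromosomes have their centromere at the proximal end, so the distal end examined here is the telomere of the long arm. The distal ends of chromosomes 4, 9 and 13 and the pseudoautosomal end of X and Y are known to carry arrays of the mo-2 minisatellite, where proteins that promote breaks gather.

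The promoters of 4 genes with a distal peak at their start are given as examples of base composition at these sites. The first 3 belong to the genes whose starts lie at the distal peaks with most fragments, and Bicd1, chosen after its values were seen, has the distal peak nearest a chromosome end that lies at a gene start in the promoter table. Sequences are from RefSeq on GRCm38.p6, which shares mm10 coordinates, run 5′ to 3′ from 250 bases before to 50 after the start, and have each CG pair in capitals.
4833420G17Rik, chr13:119462509-119462808, plus strand: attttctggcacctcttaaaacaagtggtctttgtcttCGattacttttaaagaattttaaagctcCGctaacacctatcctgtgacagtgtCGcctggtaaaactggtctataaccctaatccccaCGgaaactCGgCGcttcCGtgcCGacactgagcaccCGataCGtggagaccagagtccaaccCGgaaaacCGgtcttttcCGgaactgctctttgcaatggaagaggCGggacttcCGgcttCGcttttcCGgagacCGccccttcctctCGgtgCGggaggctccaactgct
Syce1, chr7:140787805-140788104, minus strand: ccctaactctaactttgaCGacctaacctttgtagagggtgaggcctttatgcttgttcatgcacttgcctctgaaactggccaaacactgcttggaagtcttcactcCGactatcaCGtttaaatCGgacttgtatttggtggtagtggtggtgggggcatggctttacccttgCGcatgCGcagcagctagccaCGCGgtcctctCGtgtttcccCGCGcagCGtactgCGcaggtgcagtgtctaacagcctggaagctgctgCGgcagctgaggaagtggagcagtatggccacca
Paip1, chr13:119428350-119428649, plus strand: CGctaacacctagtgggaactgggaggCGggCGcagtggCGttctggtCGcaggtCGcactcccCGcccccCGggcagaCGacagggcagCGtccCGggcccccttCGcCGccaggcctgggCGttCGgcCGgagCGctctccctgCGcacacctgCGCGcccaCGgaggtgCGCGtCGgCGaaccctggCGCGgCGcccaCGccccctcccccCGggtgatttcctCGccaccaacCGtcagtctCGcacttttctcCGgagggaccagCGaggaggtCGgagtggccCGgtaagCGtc
Bicd1, chr6:149408734-149409033, plus strand: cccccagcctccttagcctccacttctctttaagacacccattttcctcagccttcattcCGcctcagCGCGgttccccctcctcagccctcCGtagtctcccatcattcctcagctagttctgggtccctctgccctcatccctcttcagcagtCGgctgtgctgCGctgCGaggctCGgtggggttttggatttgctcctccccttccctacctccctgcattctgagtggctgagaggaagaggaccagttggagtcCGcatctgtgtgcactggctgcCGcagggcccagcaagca
The Paip1 promoter held 38 CG pairs, against 20 at 4833420G17Rik, 14 at Syce1 and 10 at Bicd1. The peaks over them held 499, 586, 506 and 41 fragments. The median of all 31396 promoters was 7 CG pairs, below each of these 4. Over the 291 distal promoters with a peak the median was 27, above all of the 4 but Paip1.

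Break peaks were sparser near the ends than elsewhere. The last 5 Mb held 3.98 peaks per Mb (interval 3.59 to 4.40) over 95 Mb, against 7.07 per Mb (6.96 to 7.18) in the rest, a ratio of 0.563 (0.507 to 0.623). Density was lower distally on 17 of 19 autosomes. It was higher on chromosome 15, at 9.80 against 7.21 per Mb (ratio 1.36, interval 0.996 to 1.82), and on chromosome 4, at 7.40 against 6.05 (1.22, 0.855 to 1.70), and both intervals include 1. Chromosome 9 was next, with a ratio of 0.948 (0.630 to 1.37), and chromosome 13 had 0.663 (0.403 to 1.03).

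The lowest ratios belonged to chromosome 3, with 1 distal peak (0.0283), chromosome 17, with 2 (0.0479), and chromosome 18, with 4 (0.0959). Members per chromosome ranged from 1 to 49, and the 4 chromosomes with most members held 150 of them, or 39.7%. On 5 autosomes no other 5 Mb window, outside the one at the proximal end, held fewer peaks than the last.

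**Figure D1:**
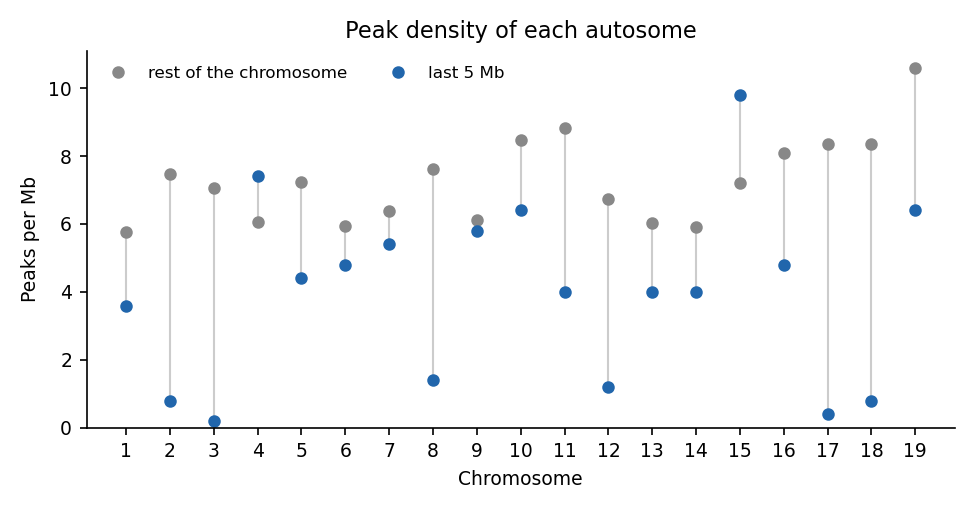
Peaks per Mb in the last 5 Mb (blue) and in the rest (grey) of each autosome, with a line joining the values of a chromosome. The blue point is below the grey one on 17 of 19 chromosomes, with 4 and 15 as the exceptions.

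The shortage was graded with distance. Counted in 1 Mb steps from the end, the 19 autosomes held 34, 52, 57, 96 and 139 peaks, or 1.79, 2.74, 3.00, 5.05 and 7.32 per Mb. The steps from 5 to 8 Mb held 8.32, 11.9 and 12.8 per Mb, above the mean of the rest. With a window of 10 Mb in place of 5 Mb the density ratio was 1.05 (0.990 to 1.11), so the lower density did not extend to a window of that size.

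Chromosomes 4, 9 and 13 followed another course. On the other 16 autosomes the 5 steps held 0.625, 1.44, 2.56, 5.75 and 7.88 peaks per Mb, rising at each step. On chromosomes 4, 9 and 13 together they held 8, 9.67, 5.33, 1.33 and 4.33. Thus 24 of the 34 peaks in the last 1 Mb lay on these 3 chromosomes and 10 on the other 16, and 11 autosomes had no peak there. Without the 3 chromosomes, a comparison chosen after seeing the data, the density ratio was 0.502 (0.446 to 0.564).

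**Figure D2:**
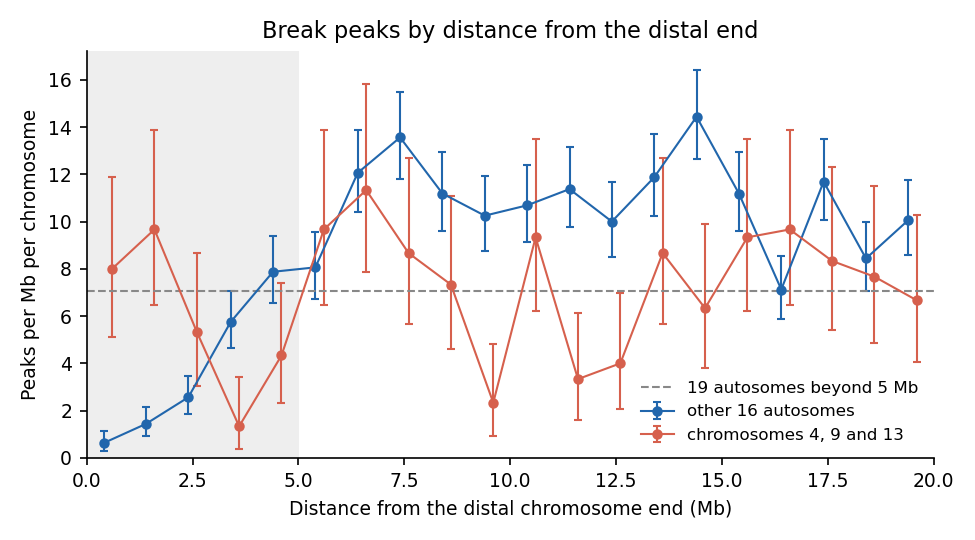
Peaks per Mb in steps of 1 Mb from the distal end, for chromosomes 4, 9 and 13 (orange) and the other 16 autosomes (blue), with exact Poisson 95% intervals. Shading marks the last 5 Mb and the dashed line the 7.07 per Mb of the rest, and blue rises from 0.625 to 7.88 within the shading while orange starts at 8.

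Genes were denser near the ends, the opposite of the peaks. There were 11.4 protein-coding genes per Mb in the last 5 Mb and 8.27 in the rest, a ratio of 1.38 (1.30 to 1.47). All annotated genes had 23.8 and 18.9 per Mb. Distal peaks lay at genes more often than the other peaks did. A gene end of either kind was within 1000 bases of the middle of 235 of the 378 members, or 62.2% (57.1 to 67.1), against 53.9% in the rest and 54% of all autosomal peaks. The difference was 8.32 percentage points (3.16 to 13.3).

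Gene starts, read on the 18 autosomes whose genes have a strand in the promoter table, gave a larger difference. A start was within 1000 bases of 214 of 374 distal peaks, or 57.2%, against 45.7% in the rest and 46% of all such peaks, a difference of 11.5 points (6.23 to 16.6). Gene 3′ ends were near 6.42% and 4.21% of peaks, and starts on both strands near 10.96% and 8.15%, and both of these differences have intervals that include 0. Peaks inside genes made up 23.8% and 27.0%, a difference of -3.21 points whose interval (-7.47 to 1.46) also includes 0. Peaks between genes made up 14.02% and 19.1%, a difference of -5.10 points (-8.50 to -1.15). All of these classes were sparser distally, by ratios of 0.650 at gene ends, 0.496 inside genes and 0.413 between genes. In the last 10 Mb the share at gene starts differed from the rest by -3.28 points, the opposite direction.

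The distal shortage was also seen per gene. Of 1408 distal genes, 255 had a peak at a start, or 18.1% (16.1 to 20.2), against 8559 of 24340, or 35.2%, in the rest and 34.2% of all genes. Among protein-coding genes the shares were 24.2% and 46.4%, and among lncRNA genes 7.85% and 15.3%. By 1 Mb step the share was 7.17% (4.31 to 11.1) in the last 1 Mb, then 15.6%, 13.8%, 29.3% and 24.5%.

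Genes of like mRNA level or like promoter composition also differed, in a comparison chosen after seeing the data. Among coding genes whose level averaged 1 or more across the 4 knockout libraries, in the authors' TPM, 199 of 575 distal genes (34.6%, 30.7 to 38.7) and 6477 of 9595 others (67.5%, 66.6 to 68.4) had a peak at a start. From 10 to under 100 the shares were 39.1% and 75.2%, and at 100 or more they were 43.2% and 70.3%. Among coding genes with at least 30 CG pairs in a promoter, 41.7% of 206 distal genes (34.9 to 48.8) and 78.7% of 2733 others had one. Without chromosomes 4, 9 and 13 the distal shares were 33.5% at a level of at least 1 and 43.2% at 30 CG pairs or more. Distal genes thus had a peak less often at every mRNA level and CG count examined, with no overlap of the intervals.

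**Figure D3:**
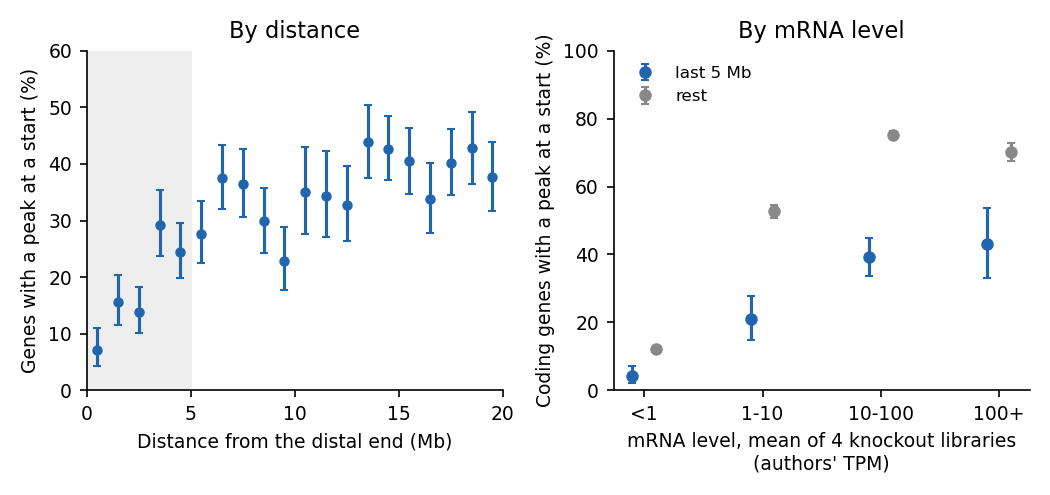
Left, share of genes with a peak within 1000 bases of a start, in steps of 1 Mb from the distal end, and right, the share of coding genes by mRNA level in the last 5 Mb (blue) and the rest (grey), all with exact binomial 95% intervals. The left panel begins at 7.17%, and in the right panel each blue interval lies below the grey one.

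Distal promoters with a peak were rich in CG pairs, with a median of 27 (24 to 28, 291 promoters), against 22 for other promoters with a peak. Distal promoters without a peak had a median of 6, and other promoters without a peak 4. These medians are over promoters, of which a gene can have several. The GC box, GGGCGG on either strand, was in 73.5% of distal promoters with a peak and 66.6% of other promoters with a peak. It was in 32.5% of distal and 20.4% of other promoters without a peak, and in 36.0% of all promoters. CCAAT, on either strand, was in 36.1% of distal and 37.8% of other promoters with a peak and 37.3% of all. TATAAA, on either strand, was in 4.47%, 6.47% and 13.6%. GC box and CG counts overlap, since the box holds a CG pair.

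Distal peaks were also weaker. Fragments of SSDS type 1, the class read as single-stranded, numbered 54 in the median distal peak (49 to 61, quartiles 31 to 100.5, range 5 to 825) and 79 in the rest (77 to 81), a ratio of 0.684 (0.605 to 0.792). The median distal peak held 16 distinct fragments against 22. It was narrower, at 1628 against 1851 bases, but held fewer fragments per kb too, 34.4 against 43.0. Of the 378 members, 138 (36.5%) reached the autosomal median of 78, 73 were among the weakest 10% of all autosomal peaks and 10 among the strongest 10%.

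The gap was wider at genes. Distal peaks at a gene end had a median of 61 fragments against 108 in the rest, and those away from gene ends 49 against 59. Among 13 autosomes with at least 10 members, the distal median was above the rest on 1, chromosome 7. Distal fragments amounted to 3.53 lines per distinct fragment and those of other peaks to 3.55, so repeated copies were alike.

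**Figure D4:**
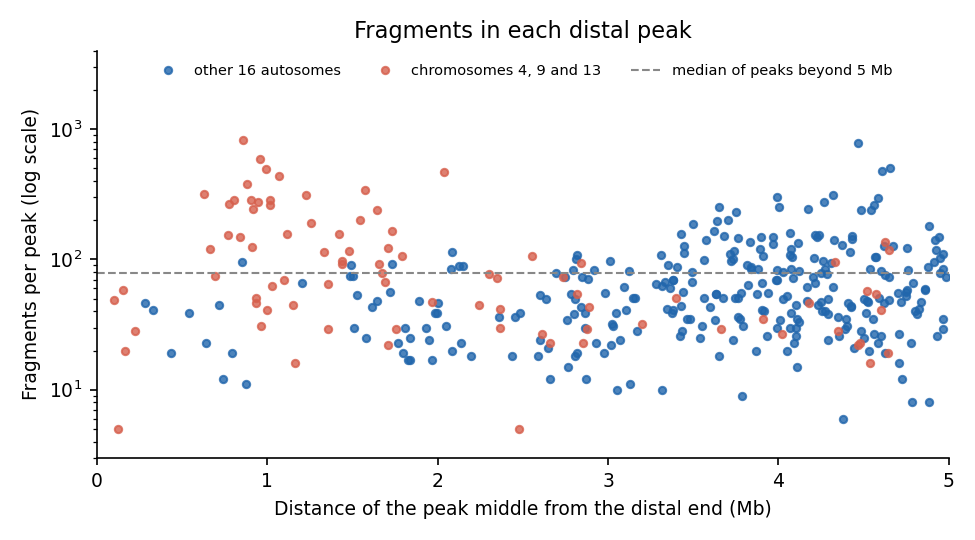
Fragments in each of the 378 distal peaks (log scale) by distance of the peak middle from the chromosome end, for chromosomes 4, 9 and 13 (orange) and the other 16 autosomes (blue), with a dashed line at the median of 79 in the rest. Most points lie under the line, and the highest points within 1 Mb of the end are orange.

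In SSDS, fragments of opposite strands pile up on opposite sides of a break. At 338 of 353 distal peaks with at least 5 fragments per strand (95.8%), the median reverse-strand fragment lay beyond the forward one, against 97.1% in the rest, and the interval of that difference includes 0. The distance between strands was 692 bases in the median distal peak (644 to 727) and 782 in the rest, a difference of -90 bases (-144 to -48). Only fragments within a peak were counted and distal peaks were narrower, and the part of peak width in this difference was not tested.

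The distal peak with most fragments, chr4:155648132-155656233 (mm10), held 825 and was also the widest member, at 8102 bases. Its middle lay 856 kb from the end within Mmp23, which encodes a matrix metalloproteinase, with no gene end within 1000 bases of that middle. The peak ranked 165 among all autosomal peaks by fragments. The second, chr6:145268945-145271690, held 785 fragments with no annotated gene around its middle. These 2 were the only ones of the 10 strongest members whose middle was farther than 1000 bases from any gene end.

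The other 8 lay at gene starts. The peak at 4833420G17Rik, on chr13, held 586 fragments. Syce1, on chr7, which encodes a protein of the synaptonemal complex that joins paired chromosomes, had 506. Paip1, on chr13, for a protein that binds the poly(A)-binding protein in translation, had 499. Ccdc186 on chr19 had 480, and Mrps30 on chr13, for a mitochondrial ribosomal protein, had 468. The last 3 were on chr9, at Sacm1l, a phosphoinositide phosphatase (438), Lztfl1, a regulator of ciliary protein traffic (379), and Tmem42, a membrane protein (340). Of the 10 strongest members, 7 were thus on chromosomes 4, 9 and 13, which held 37, 29 and 20 of all 378 members.

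The 3 members nearest an end held 49, 5 and 58 fragments, against the median of 54 over all members. The first and second lay on chr9, 102 and 124 kb from the end, neither with a gene. The third lay on chr4, 154 kb from the end, in the vomeronasal receptor gene Vmn2r125. After the widest member came a peak of 6023 bases on chr4 at 1500002C15Rik (267 fragments) and one of 4643 bases on chr15 at Dazap2 and C330013E15Rik (156). At the 5 Mb limit, the 3 members just inside held 73, 84 and 110 fragments, with Troap and Gm34284 at the last of them. The 3 peaks just outside held 62, 19 and 30.

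The last 1 Mb of chromosomes 4, 9 and 13 carried many more fragments than that of any other autosome. They held 16462, 23411 and 11091, and the other 16 held 1561 to 2300, with a median of 1749.5. The 3 ends do not overlap with the others, and their mean of 16988 per Mb was 9.54 times the 1781 per Mb of the others. Distinct fragments numbered 4635, 6410 and 3113 against 428 to 694. At each of the other 16 ends, the last 1 Mb held fewer fragments per Mb than the rest of its own chromosome.

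Most of these fragments lay outside the called peaks. The share within peaks was 15.2% on chromosome 4, 3.02% on chromosome 9 and 15.5% on chromosome 13. In steps of 100 kb the highest was 3064 fragments on chromosome 4, at 600 to 700 kb from the end, where the highest of the other 16 was 247. On chromosome 9 it was 5373 at 300 to 400 kb (others up to 253), and on chromosome 13 it was 4276 at 900 to 1000 kb (others up to 289). In the last 1 Mb, 9 of 10 steps on chromosomes 4 and 9 and 7 on chromosome 13 were above all of the other 16 autosomes. On chromosome 13 the fragments were concentrated, with 2944 at 800 to 900 kb and 4276 at 900 to 1000 kb among the 11091 of the last 1 Mb.

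Repeats can misplace reads, and the fragment file has a column without a header that pairs 2 numbers from 0 to 60, which look like mapping qualities but are not explained. Lines with 0 for both made up 1.70% on chromosome 4, 1.93% on chromosome 9 and 29.8% on chromosome 13 in the last 1 Mb, against 0.384% to 11.9% at the other 16 ends. Counting only lines with 60 for both, the 3 ends had 14271, 17945 and 5563 fragments and the other 16 had 1074 to 1658, again without overlap. The part of misplaced reads in the excess was not tested, since the meaning of these numbers is not given. On X, which has no members, 10926 fragments lay 1 to 1.1 Mb from the end, 66.0% of them with 0 for both numbers, and no peak was called in the last 1.5 Mb.

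**Figure D5:**
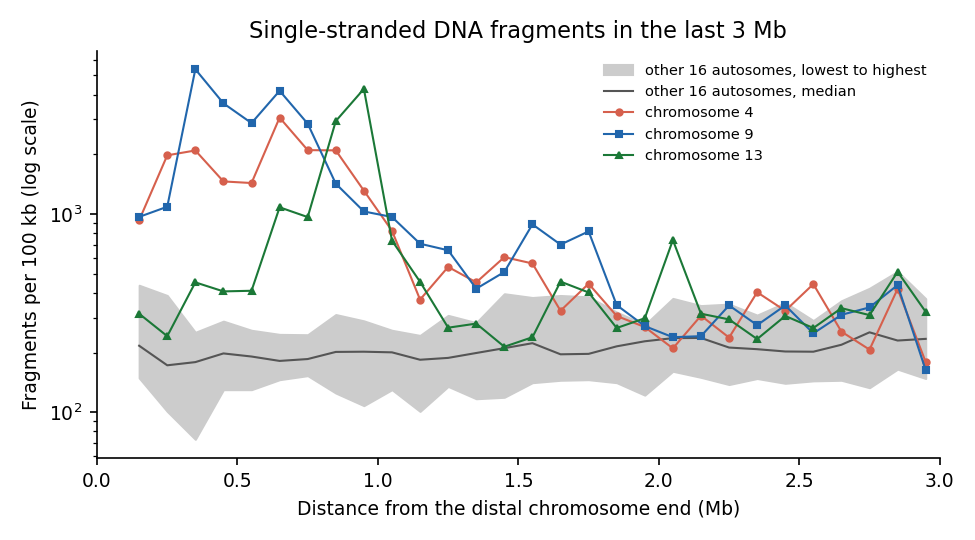
Fragments per 100 kb (log scale) from 0.1 to 3 Mb from the distal end on chromosomes 4, 9 and 13, against the lowest, median and highest of the other 16 autosomes (grey); the first 100 kb, which holds no fragment, is not drawn. Chromosomes 4 and 9 stand above the grey band in 9 of 10 steps in the last 1 Mb and chromosome 13 in 7.

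The 24 members in the last 1 Mb of these 3 chromosomes had a median of 137 fragments (49 to 285), and the 10 on the other autosomes had 31 (12 to 46). A gene end was near 12 of the 24 and 9 of the 10. With so few peaks these shares have wide intervals, 29.1% to 70.9% and 55.5% to 99.7%. From 1 to 5 Mb the medians were 63.5 on chromosomes 4, 9 and 13 and 52 on the others.

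Background outside peaks depended on the same ends. The last 5 Mb held 2694 fragments per Mb outside peaks and the rest 2671, a ratio of 1.01. Without chromosomes 4, 9 and 13 these were 2216 and 2690, a ratio of 0.824 (0.820 to 0.828). With repeated fragments counted once, the ratio without these chromosomes was 0.835 (0.827 to 0.842). The share of fragments within peaks was 11.3% distally and 27.0% in the rest. The lower background moves with the lower peak density on the other 16 autosomes, and its part in how many peaks were called was not tested.

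Genes with a distal peak were mostly expressed in testis. In the 4 knockout libraries the median of the 211 such genes with a value was 26.2 to 26.4, in the authors' TPM, and 31.3 in the wild-type library. For other genes with a peak (7188) it was 20.4 to 21.1 and 25.2. The ratio of the medians of the knockout means was 1.28 (0.925 to 1.74), an interval that includes 1. In the first Prdm9-/- library, 94.3% of the distal genes and 90.2% of the others were above 1. Among all coding genes with a value, with or without a peak, 575 of 866 distal genes and 9595 of 15177 others averaged 1 or more across the knockouts.

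The genes ranged widely. The highest were Actg1, encoding cytoplasmic gamma actin, at 1436 to 2111 in the knockouts and 1761 in wild type, and Rplp2, a ribosomal protein gene, at 1206 to 1800 and 852. Gnb1, a G protein subunit gene, Lars2, a mitochondrial leucyl-tRNA synthetase gene, and Rpl14, for another ribosomal protein, had knockout means of 558, 552 and 536. Genes for actin and ribosomal proteins have near-identical copies in the genome, so their values are uncertain. At the other extreme, Oxgr1, Inhbe, Vipr2, Fgf10 and Slc6a20a, genes for receptors, secreted factors and a transporter, had knockout means from 0.0249 to 0.137. In the wild-type library these genes had 2.33, 0.105, 0.0374, 2.00 and 2.99, in the order named. Each had a distal break peak at its start, of 58, 42, 20, 22 and 246 fragments in that order. The median over all members was 54.

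The 10 genes at the named peaks that have a value are described singly, and the share of all genes that differ likewise was not computed. The median over genes with a distal peak was itself higher in wild type, 31.3 against 26.2 to 26.4 in the knockouts. Some of the named genes were higher in the wild-type library than in every knockout library. Syce1 was 30.1, 33.6, 30.2 and 33.6 in the knockouts and 397 in wild type. Lztfl1 was 22.7 to 25.5 and 136, and Ccdc186 9.77 to 12.6 and 63.4. Troap was 2.51 to 2.90 and 12.3, and 4833420G17Rik 23.6 to 26.3 and 30.3. Dazap2, Paip1, Sacm1l and Tmem42 went the other way, lower in wild type than in every knockout library. Dazap2 was 247 to 281 in the knockouts and 138 in wild type, and Sacm1l 16.5 to 19.4 and 5.42. Paip1 was 65.5 to 75.4 and 54.3, and Tmem42 13.8 to 18.7 and 12.9. Mrps30 overlapped, at 12.03 to 18.4 and 17.5. The deposited columns sum to different totals, from 825459 to 1622660, and there is 1 wild-type library. Markers of other cell types also differed in level: the summed level of 3 Leydig cell markers was 276 in wild type and 1364 to 1759 in the knockouts, that of 4 Sertoli cell markers 98.0 and 380 to 417, that of 3 macrophage markers 13.9 and 78.2 to 137. The sum of 6 germ cell markers was 464 and 385 to 474, but its members went both ways. Ddx4 was 225 in wild type and 24.9 to 29.4 in the knockouts, while Dazl was 49.8 and 105 to 160, Dmc1 9.07 and 31.8 to 34.8, Sycp3 50.9 and 60.1 to 88.1 and Hormad1 45.2 and 56.4 to 75.9. Sycp1 overlapped, at 83.8 and 75.5 to 110. All 16 markers were above 1 in every library. Their part in these differences was not tested, and in whole testis fewer cells of a type cannot be told apart from less RNA per cell.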

How the data were processed

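Break peaks and fragments came from 1 SSDS library and mRNA levels from 5 libraries. The authors' deposited BED files hold positions, on mm10 per the submitters' processing notes, which name MACS2 2.1.0.20150420 and CASAVA, with the aligner, peak settings and control not given in the sources used here. Peaks do not overlap. The file holds 9397213 type 1 fragment lines, 8948908 on autosomes, of which 2521197 are distinct. Counting intervals rest on the numbers of peaks, genes or fragments compared. Where all lines are counted, repeated copies make the interval narrower than distinct fragments would. The mRNA values are a signal the authors called TPM, per the file headers, and keep no depth. There were 0 unmapped columns.

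A fragment was assigned by its middle. Densities have exact Poisson intervals, ratios of densities exact conditional ones, shares Clopper-Pearson intervals and medians order-statistic intervals (Python 3.11.15, numpy 2.4.6, pandas 2.3.3, scipy 1.17.1). Differences of shares combine the exact bounds of each share. Ratios of densities, medians and differences of shares were checked on simulated data. Ratios and differences of medians take the bounds of the separate median intervals crosswise, and these intervals were not checked. The gene table (RefSeq, GRCm38.p6) has no strand, so gene ends of either kind used 19 autosomes, while starts came from the promoter table, which has 18 (chromosome 18 was not used), a departure from the plan. Of 25748 genes, 16201 (62.9%) had an mRNA value, joined by symbol; a join by synonym was added after first values were seen. Coverage was 97.7% of distal and 97.5% of other coding genes, and 82.7% and 84.0% of genes with a peak. Over all genes it was under 80%, so levels of genes without a peak are void as a check and are not given.

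Named were the 10 members with most fragments, the 3 nearest an end, the widest 3, the 3 on each side of the 5 Mb limit, genes starting at these, the 5 highest and 5 lowest genes by knockout mean, and the chromosomes of extreme density ratio with 4, 9 and 13. The members and lists were chosen with earlier results of these data known. Alternatives were other windows, gene distances, fragment counts and chromosomes left out. The fragment profiles in steps of 100 kb, the values at the X end, the paired numbers of the fragment file, the shares by mRNA level and CG count, and the comparison without chromosomes 4, 9 and 13 were chosen after seeing the data.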

Additional observations from a re-analysis of the deposited data

How the results depend on the processing

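Peak density was lower distally, with ratios of 0.517 to 0.595 on leaving out each autosome, 0.322 in the last 2 Mb, 0.406 for peaks of at least the median fragment count and 0.502 without chromosomes 4, 9 and 13. In the last 10 Mb the density ratio was 1.05 (0.990 to 1.11), an interval that includes 1. Fragments per peak kept a ratio under 1 throughout (0.646 to 0.696 on leaving out each autosome), with 0.814 in the last 2 Mb, where the interval includes 1. The gene start share stayed 10.0 to 12.8 points higher without each autosome and reversed to -3.28 in the last 10 Mb. The share of genes with a peak stayed lower, by -17.9 to -15.8 points without each autosome, -23.0 in the last 2 Mb, -11.0 in the last 10 Mb and -22.2 for coding genes. The ratio of fragments outside peaks was least stable: 0.928 to 1.03 without each autosome, with 0.928 without chromosome 9, 0.954 without 4 and 0.979 without 13, and 0.824 without all 3; it was 1.16 in the last 2 Mb, 1.08 in the last 10 Mb, 1.00 without the first 3 Mb and last 100 kb, and 1.02 with repeated fragments counted once. Strand distance kept its direction in all 23 alternatives, with -83.5 bases in the last 2 Mb, where the interval includes 0. The ratio at the ends of chromosomes 4, 9 and 13 was 7.91 over 500 kb and 5.66 over 2 Mb. The mRNA ratio was 1.17 to 1.30, and the cause of each shift was not tested. No paired analysis was possible because the results come from no test, with 1 break library. The median member holds 16 distinct fragments, which limits the precision of its values.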
